A study of Homo sapiens with 3 samples.

Results

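Claudins and their first partners in the epithelial tight junction are described here across the cells of Caco-2/HT29 co-cultures. The 10 genes are the claudins CLDN1, CLDN2, CLDN3, CLDN4, CLDN7, CLDN12 and CLDN15, the occludin gene OCLN, the scaffold gene TJP1 and the adhesion molecule gene F11R. They were chosen by symbol from the 33538 genes counted in each of 3 single-cell RNA libraries, and each symbol matched 1 gene. Caco-2 and HT29 are human colorectal carcinoma lines that were seeded together on Transwells at a ratio of 9 to 1, at passage 8 and passage 13, and released with trypsin on day 23. The groups are 2 untreated control wells and 1 LPS-treated well, which received lipopolysaccharide of Escherichia coli at 1 ng/ml on its apical side from day 22 for 24 hours. Each well gave 1 library, so the treatment has no replicate, and no monoculture of either line was analysed here.

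Tight junctions close the space between neighbouring epithelial cells. Claudins are membrane proteins whose outer loops pair across that space, and the set of claudins a cell makes helps to decide how tight the seal is and which ions pass. CLDN1, CLDN3, CLDN4 and CLDN7 are generally counted as sealing claudins, CLDN2 forms a pore for cations and water, CLDN15 forms a cation pore of the small intestine, and the role of CLDN12 is less settled. Occludin is another membrane protein of the strand, TJP1 encodes the scaffold ZO-1 that ties the strand to actin, and F11R encodes JAM-A, an immunoglobulin-like molecule that takes part in building the junction.

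Promoter sequence is shown for 4 of the genes that differed between the lines as described further on. They are CLDN3 and CLDN7, higher in HT29-like cells, and CLDN1 and CLDN15, higher in Caco-2-like cells. The sequences are from RefSeq (GRCh38) and run from 250 bases before to 50 bases after a start site. Capitals mark 3 motifs on either strand, CACCTG (the E-box bound by the Snail family of repressors), AACCGG (a grainyhead site) and GGGCGG (the GC box).
CLDN3 (chr7:73770221-73770520, minus strand): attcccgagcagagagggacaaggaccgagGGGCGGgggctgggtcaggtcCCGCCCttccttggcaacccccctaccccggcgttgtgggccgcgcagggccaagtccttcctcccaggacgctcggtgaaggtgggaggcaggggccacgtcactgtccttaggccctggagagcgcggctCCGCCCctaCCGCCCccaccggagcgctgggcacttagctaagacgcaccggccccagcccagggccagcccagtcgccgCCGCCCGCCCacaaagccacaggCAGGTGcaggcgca
CLDN7 (chr17:7262429-7262728, minus strand): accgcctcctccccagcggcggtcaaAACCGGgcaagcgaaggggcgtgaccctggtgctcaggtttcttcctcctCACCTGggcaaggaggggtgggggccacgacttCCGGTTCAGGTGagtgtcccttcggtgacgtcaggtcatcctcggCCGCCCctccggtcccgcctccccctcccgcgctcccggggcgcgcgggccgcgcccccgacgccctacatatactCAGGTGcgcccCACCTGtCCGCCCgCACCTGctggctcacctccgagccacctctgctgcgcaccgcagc
CLDN1 (chr3:190322397-190322696, minus strand): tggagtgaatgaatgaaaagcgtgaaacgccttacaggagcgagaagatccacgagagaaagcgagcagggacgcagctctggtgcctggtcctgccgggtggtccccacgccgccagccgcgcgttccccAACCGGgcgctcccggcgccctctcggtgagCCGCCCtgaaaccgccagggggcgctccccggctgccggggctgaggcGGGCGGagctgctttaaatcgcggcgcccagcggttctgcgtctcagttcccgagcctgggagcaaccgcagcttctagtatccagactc
CLDN15 (chr7:101237753-101238052, minus strand): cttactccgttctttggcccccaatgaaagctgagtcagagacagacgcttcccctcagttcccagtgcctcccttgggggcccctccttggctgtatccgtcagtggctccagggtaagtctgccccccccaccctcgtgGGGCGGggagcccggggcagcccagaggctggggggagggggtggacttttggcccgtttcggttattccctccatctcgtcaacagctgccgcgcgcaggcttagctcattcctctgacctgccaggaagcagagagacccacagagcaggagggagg

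The CLDN3 window held 1 E-box and 6 GC boxes, 2 of which overlap each other, and the CLDN7 window shown held 5 E-boxes, 2 grainyhead sites and 2 GC boxes. CLDN7 has another start site in the table (chr17:7263164-7263463, minus strand), whose window held none of the 3 motifs. CLDN1 had 1 grainyhead site and 2 GC boxes, and CLDN15 had 1 GC box. The window of CLDN12, also higher in HT29-like cells, held none of the 3 motifs. The windows of OCLN, lower in HT29-like cells, held 1 and 2 E-boxes. The E-box thus did not divide the genes by line. The table held 15 such windows for 9 of the 10 genes, with F11R not among them, and 5 windows held the E-box, 3 the grainyhead site and 9 the GC box. Of 35116 promoter windows of the same length, 20.6% held CACCTG, 7.23% AACCGG and 45.0% GGGCGG. No base of the members' windows lay in matches of more than 1 of the 3 motifs, and a match describes letters and not a bound factor.

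CLDN3 (chr7:73768997-73770270, minus strand, GRCh38) and CLDN4 (chr7:73799542-73832690, plus strand) are neighbours, 29271 bases apart. CLDN12 (chr7:90383721-90513402, plus) and CLDN15 (chr7:101232092-101238820, minus) lie on the same chromosome. CLDN1 lies at chr3:190305707-190322446 (minus), CLDN2 at chrX:106900164-106930861 (plus), CLDN7 at chr17:7259903-7263983 (minus), OCLN at chr5:69492292-69558104 (plus), TJP1 at chr15:29699367-29968915 (minus) and F11R at chr1:160995211-161021343 (minus). CLDN7 and F11R each overlap a readthrough gene on the same strand and CLDN12 overlaps GTPBP10 and CDK14, so reads in shared sequence could be missing from these counts. OCLN has a pseudogene copy, and its counts are uncertain to that extent.

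The files hold counts of unique molecular identifiers (UMIs, each marking 1 captured RNA molecule) per gene and cell barcode. The libraries held 24185467 to 33893707 UMIs in 5811 to 6838 barcodes, and 14471 cells passed the filters, with a median of 5459 UMIs per cell in control 1, 4102.5 in control 2 and 3573.5 in the LPS-treated library. Pairs of libraries shared 9 to 11 barcodes. Epithelial markers were high in every library (in per-million units of UMIs, CPM, EPCAM stood at 623 to 670.0 and KRT18 at 1233 to 1424). Of 7 markers of other cell types, LYZ, which is also an HT29 marker, stood at 215 to 245 CPM, and the other 6 summed to 13.7 to 17.4 CPM, with none at 0 over all cells. The cells fell into 14 clusters, of which 12, with 11868 cells, were Caco-2-like by line markers and 1, with 2382 cells, was HT29-like. The last, with 221 cells, was mixed by its line markers (52.5% of cells with an HT29 score) and was given no line. HT29-like cells made up 13.3%, 18.9% and 16.9% of control 1, control 2 and the LPS-treated library. The 10 genes, and a list of 80 further junction genes, were kept out of the clustering. The groups were still drawn from the same cells, so p-values between them are too small.

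CLDN4 was the most abundant of the 10 genes and CLDN2 the rarest. Levels are CPM from the summed UMIs of a group of cells, given in the order control 1, control 2, LPS-treated, and are not divided by gene length because the assay counts molecules at their 3′ end. Over all cells CLDN4 stood at 457, 407 and 402 CPM and CLDN3 at 249, 252 and 217 CPM. CLDN7 stood at 147, 156 and 142 CPM and CLDN1 at 94.3, 78.0 and 85.2 CPM. These sealing claudins were in the same order in all 3 libraries, with no overlap between neighbours. OCLN (62.6, 68.4 and 80.2 CPM) overlapped in range with F11R (48.9, 55.7 and 62.6 CPM), and F11R with TJP1 (50.8, 53.2 and 54.8 CPM). CLDN15 stood at 33.7, 33.0 and 33.2 CPM and CLDN12 at 17.1, 23.9 and 25.5 CPM. CLDN2 gave 60, 43 and 39 UMIs, or 2.00, 1.76 and 1.91 CPM.

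The first comparison asks how the lines differ in these genes. HT29-like cells had more RNA of the sealing claudins CLDN3, CLDN7 and CLDN4 and of CLDN12 than Caco-2-like cells of the same well, and less of CLDN1, CLDN15, OCLN and CLDN2. By an edgeR quasi-likelihood test on 6 sums with the library as a block, 6 of the 10 genes were higher and 4 lower at a Benjamini-Hochberg adjusted p below 0.05. Of all 14485 genes tested, 34.1% were higher and 37.5% lower, so being called does not set a gene apart here, and the sizes below are what tell the members from each other.

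CLDN3 stood at 767, 748 and 632 CPM in HT29-like and 161, 146 and 124 CPM in Caco-2-like cells. The groups lay far apart, 4.99-fold by their means, with a log2 fold change of 2.27 ± 0.08 (SE, adjusted p = 7.1e-22). CLDN7, which binds EPCAM at the lateral membrane, stood at 359, 370.1 and 311 against 112, 111 and 106 CPM, a log2 fold change of 1.61 ± 0.09 (adjusted p = 1.8e-17). CLDN12 stood at 48.4, 74.5 and 70.1 against 12.0, 13.2 and 15.7 CPM, a log2 fold change of 2.18 ± 0.11 (adjusted p = 8.1e-18). By its means CLDN12 was 4.71-fold higher in HT29-like cells, where its level overlapped with those of TJP1 and F11R. CLDN4 differed less than its neighbour CLDN3, at 770.2, 659 and 611 against 406, 354 and 357 CPM and a log2 fold change of 0.82 ± 0.08 (adjusted p = 6.9e-11). In HT29-like cells CLDN3 and CLDN4 overlapped in level (716 ± 73.0 and 680.0 ± 81.7 CPM, SD, n = 3), whereas in Caco-2-like cells CLDN4 (373 ± 29.3 CPM) lay above CLDN3 (144 ± 18.6 CPM) in every library.

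CLDN1 was lower in HT29-like cells, at 24.1, 25.4 and 31.6 CPM against 106, 89.6 and 97.5 CPM in Caco-2-like cells. Its log2 fold change was -1.91 ± 0.11 (adjusted p = 2.8e-16), and the groups did not overlap. The pore claudin CLDN15 stood at 20.1, 22.0 and 21.0 against 36.2, 35.4 and 35.9 CPM, with a log2 fold change of -0.82 ± 0.12 (adjusted p = 3.0e-07). OCLN stood at 33.5, 48.6 and 53.4 against 67.5, 72.9 and 86.9 CPM, with a log2 fold change of -0.81 ± 0.10 (adjusted p = 3.2e-08). Neither gene's pooled groups overlapped. For CLDN15 the Caco-2-like level was a mixture of unlike clusters. The largest Caco-2-like cluster (3031 cells) stood at 21.9, 19.4 and 20.7 CPM, overlapping with HT29-like cells. The enterocyte-like cluster (2087 cells) stood at 68.6, 74.4 and 62.2 CPM. CLDN2 rested on 6, 1 and 2 UMIs in HT29-like and 54, 42 and 37 UMIs in Caco-2-like cells. Its log2 fold change of -1.50 ± 0.49 (adjusted p = 0.0069) was not called without control replicate 2 (-1.06, adjusted p = 0.084) or without the LPS-treated library (-1.30, adjusted p = 0.065), was -2.44 without control replicate 1, and was not called by DESeq2 (adjusted p = 0.077).

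The scaffold and the adhesion molecule differed little. TJP1 stood at 58.0, 65.6 and 60.3 CPM in HT29-like and 49.4, 50.6 and 53.3 CPM in Caco-2-like cells, with a log2 fold change of 0.22 ± 0.10 (adjusted p = 0.049). F11R stood at 60.5, 70.3 and 66.3 against 46.7, 52.1 and 62.1 CPM, with overlapping ranges and a log2 fold change of 0.25 ± 0.10 (adjusted p = 0.022). The call on TJP1 was lost without control replicate 1, control replicate 2 or the LPS-treated library (adjusted p = 0.091, 0.16 and 0.072 by edgeR), and that on F11R without control replicate 1 or control replicate 2 (adjusted p = 0.11 and 0.092). Without the library block the adjusted p was 0.073 for TJP1 and 0.061 for F11R.

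Markers of the other line were present in each group. In HT29-like cells, of which 90.2% had an HT29 score, the 16 Caco-2 markers stood at a median of 9.41% of their level in Caco-2-like cells (5.44% to 107%, the highest being TIMP2). In Caco-2-like cells the 17 HT29 markers stood at a median of 2.12% of their level in HT29-like cells (0.866% to 21.0%, the highest being CA12). The line was also set cell by cell. Cells near the dividing score were left out, and all others took the line of their own score, whatever the line of their cluster. This also took in cells from the cluster without a line. The log2 fold change then became -2.11 for CLDN1, -1.02 for CLDN15 and -2.40 for CLDN2. It became slightly smaller for CLDN3 (2.21), CLDN4 (0.77) and CLDN7 (1.56). The differences of CLDN12, OCLN and TJP1 were slightly larger and that of F11R slightly smaller, and all 10 genes were called.

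**Figure D1:**
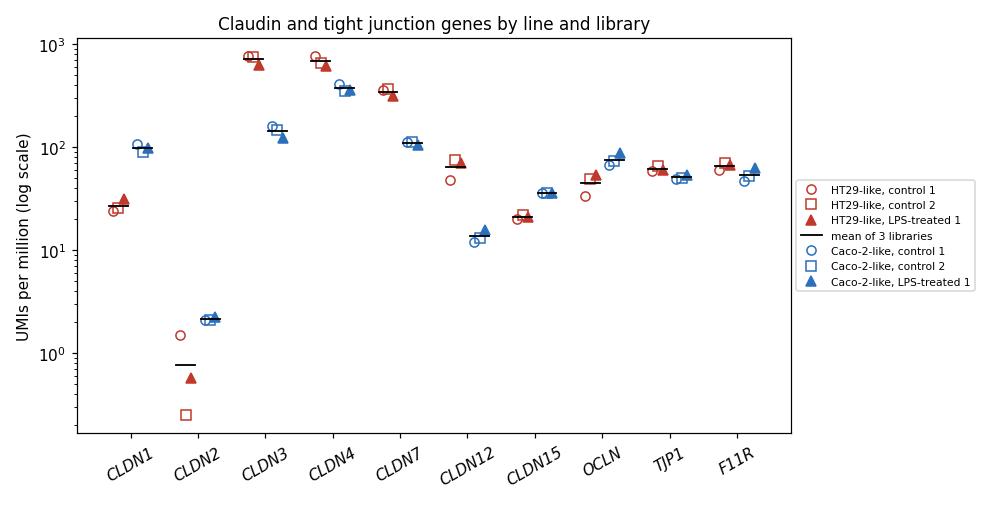
CPM (log axis) of the 10 genes in HT29-like cells (red) and Caco-2-like cells (blue), 1 point per library (circle control 1, square control 2, filled triangle LPS-treated) and a bar for the mean of 3 libraries. CLDN3, CLDN7 and CLDN12 lay well apart with HT29-like cells above, CLDN1 well apart with Caco-2-like cells above, and TJP1 and F11R close together.

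CLDN3 was seen in 86.1% of HT29-like cells (exact binomial 95% interval 84.6% to 87.4%, counting error only) and 45.3% of Caco-2-like cells (44.4% to 46.2%), at median depths of 4100.5 and 4390 UMIs. CLDN12 was seen in 24.2% and 6.60%, and CLDN1 in 11.1% and 34.0%. For background, markers of the other line were seen in a median of 2.96% of HT29-like cells (0.378% to 28.1%) and 0.994% of Caco-2-like cells (0.0506% to 8.85%). In HT29-like cells the shares of CLDN3, CLDN4 and CLDN7 lay above the highest of those markers and the other 7 genes, from CLDN2 (0.378%) to F11R (25.0%), lay within their range. In Caco-2-like cells CLDN2 (1.06%) and CLDN12 lay within it and the other 8 above. Shares alone do not set the genes within the range apart from these markers in that line. The Caco-2 markers include TIMP2, at 107% of its Caco-2-like level in HT29-like cells, so not every marker in the range stands for background. CLDN12, TJP1 and F11R were seen in more HT29-like than Caco-2-like cells (24.2% against 6.60%, 23.6% against 21.3% and 25.0% against 22.5%). CLDN1, CLDN2, CLDN15 and OCLN were seen in fewer.

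With every cell thinned to 1500 UMIs, CLDN3 was seen in 61.9% of HT29-like and 19.2% of Caco-2-like cells. CLDN4 was seen in 60.5% and 41.7%, and CLDN7 in 38.5% and 14.6% (unthinned 86.6% and 74.3%, and 70.2% and 38.1%). For these 3 genes the order between the lines was the same at equal depth. A thinned HT29-like cell held UMIs of a median of 2 of the 10 genes and a thinned Caco-2-like cell of 1, and 7.81% and 26.5% of cells held none.

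A wider list covers other claudins, membrane proteins, scaffolds, partners, actomyosin, adherens junction and regulators. Of its 80 genes, 60 passed the filter on low counts. In HT29-like cells 26 were higher and 26 lower (43.3% each), beside 34.1% and 37.5% of all genes tested. The median log2 fold change was 0.05, beside -0.07 over all genes tested. Most groups of the junction held genes that moved in either direction.

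Among 17 other claudins, 3 had no UMI and 5 could be tested, of which 1 was higher and 3 lower. CLDN9 was higher in HT29-like cells (11.1 ± 0.85 against 0.981 ± 0.242 CPM, SD, n = 3, log2 fold change 3.46 ± 0.26). CLDN19 and CLDN16, which form a channel in the kidney, and CLDN23 were lower, at log2 fold changes of -4.77 ± 0.54, -3.26 ± 0.46 and -1.09 ± 0.24, and CLDN19 had no UMI in the HT29-like cells of 1 library. These claudins were scarce beside CLDN3 and CLDN4, with no mean above 11.1 CPM in either line.

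Of the 5 other membrane proteins tested, 2 were higher and 3 lower. The angulins ILDR1 (2.25 ± 0.31) and LSR (160.0 ± 7.81 against 84.5 ± 8.24 CPM, log2 fold change 0.88 ± 0.09), which mark the corners between cells, were higher in HT29-like cells. MARVELD3, a relative of occludin, was lower (23.1 ± 3.02 against 59.6 ± 1.70 CPM, log2 fold change -1.42 ± 0.12), as were the tricellulin gene MARVELD2 (-0.40 ± 0.13) and the adhesion molecule gene CXADR (-0.43 ± 0.09). OCLN and both of its relatives were thus lower in HT29-like cells.

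Of 17 scaffold and polarity genes tested, 7 were higher and 8 lower. MAGI3 (1.40 ± 0.13), PARD6A (1.26 ± 0.23) and YBX3 (1.23 ± 0.09) were higher, and AMOTL1 (4.94 ± 1.71 against 48.6 ± 5.87 CPM, log2 fold change -3.36 ± 0.16), AMOT (-2.37 ± 0.25) and PARD3 (-1.07 ± 0.11) were lower. MAGI3 is a junction scaffold, PARD6A and PARD3 belong to the polarity complex, YBX3 is a junction-bound Y-box factor, and AMOT and AMOTL1 are angiomotins.

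Of 6 claudin partners and surface proteases, 4 were higher and none was lower in HT29-like cells. They included the inhibitors of surface proteases SPINT2 (1669 ± 157 against 454 ± 34.4 CPM, log2 fold change 1.83 ± 0.08) and SPINT1 (1.63 ± 0.08). SPINT2 is also 1 of the 2 genes whose pattern over clusters was most like that of CLDN7.

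Of 10 actomyosin genes tested, 6 were higher and 4 lower. The nonmuscle myosin gene MYH14 (453 ± 13.7 against 132 ± 13.5 CPM, log2 fold change 1.73 ± 0.09) and the light chain gene MYL12A (0.58 ± 0.08) were higher. The light chain gene MYL9 (6.86 ± 2.02 against 68.6 ± 6.29 CPM, log2 fold change -3.39 ± 0.15) and the kinase genes MYLK (-0.99 ± 0.13) and ROCK2 (-0.27 ± 0.09) were lower. Of 10 adherens junction genes, 3 were higher, NECTIN2 (0.79 ± 0.09), CTNNA1 (0.70 ± 0.09) and AFDN (0.54 ± 0.10), and 4 lower, among them the cadherin genes CDH3 (-2.51 ± 0.19) and CDH17 (73.0 ± 16.4 against 226 ± 37.99 CPM, log2 fold change -1.69 ± 0.10) and NECTIN3 (-1.15 ± 0.16).

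Of 7 transcription factor genes tested, 3 were higher and 4 lower. CDX1 (7.96 ± 1.43 against 0.192 ± 0.0101 CPM, log2 fold change 5.27 ± 0.37), KLF5 (0.84 ± 0.09) and the grainyhead factor gene GRHL2 (0.60 ± 0.17) were higher. The intestinal regulator CDX2 (12.0 ± 5.68 against 97.4 ± 2.56 CPM, log2 fold change -3.10 ± 0.15) and the hepatocyte nuclear factor gene HNF4A (-2.09 ± 0.10) were lower in HT29-like cells.

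The second comparison sets 2087 enterocyte-like cells against 4407 stem- and transit amplifying (TA)-like cells, all Caco-2-like. Enterocyte-like cells had more RNA of both pore claudins, CLDN2 and CLDN15, and less of CLDN1 and TJP1. Of the 10 genes 7 were higher and 2 lower, beside 31.9% higher and 31.6% lower of 12949 genes tested. Class names come from markers that the study drew from its control libraries, and ALB and AFP, which lead 1 of the stem-like clusters (535 cells), are among them. The TA-like cells were cluster 0 (3031 cells), with 8 of 8 TA markers raised and ANKRD1 and DKK1 among its leading genes. Cluster 4 (867 cells), led by RRM2 and SPC25, had 6 of 8 raised but stayed unnamed and outside both classes. The fit set the median gene at -0.01, whereas scaling by library totals, tried after seeing the data, set it at -0.31, with 2738 genes higher and 6011 lower in place of 4127 and 4095. Fold changes here are therefore relative to the typical gene and lie above the log2 ratios of CPM. Genes that were higher differ more by the fit than by CPM, and genes that were lower differ less. Under totals 7 members were again higher and 2 lower, and CLDN12, called under neither, went from 0.14 to -0.16.

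CLDN15 stood at 68.6, 74.4 and 62.2 CPM in enterocyte-like and 22.7, 20.5 and 24.2 CPM in stem- and TA-like cells. The groups lay far apart, with a log2 fold change of 1.92 ± 0.10 (adjusted p = 3.8e-18). CLDN2 stood at 3.71, 5.73 and 4.50 against 1.10, 1.19 and 1.16 CPM, from 18, 17 and 12 and 11, 10 and 8 UMIs, with a log2 fold change of 2.27 ± 0.36 (adjusted p = 1.4e-06). CLDN2 remained the member with the lowest level in both classes. CLDN3 stood at 179.8, 175 and 154 against 133, 113 and 103 CPM, with a log2 fold change of 0.84 ± 0.07 (adjusted p = 1.2e-12).

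F11R stood at 51.1, 63.3 and 77.6 against 39.0, 47.5 and 46.6 CPM, with a log2 fold change of 0.80 ± 0.09 (adjusted p = 7.2e-10). CLDN7 stood at 128, 138 and 126 against 113, 108 and 107 CPM (0.55 ± 0.07, adjusted p = 3.8e-08), and CLDN4 at 409, 389 and 371 against 367, 319 and 329 CPM (0.50 ± 0.07, adjusted p = 1.0e-07). These sealing claudins differed by 1.195-fold and 1.15-fold in mean CPM. OCLN, at 66.9, 77.5 and 95.2 against 62.2, 65.6 and 80.2 CPM, overlapped between the groups but was higher in enterocyte-like cells within each library (0.49 ± 0.08, adjusted p = 1.5e-06).

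TJP1 was lower in enterocyte-like cells, at 37.5, 44.8 and 42.7 against 61.6, 58.0 and 64.8 CPM (-0.27 ± 0.09, adjusted p = 0.0092), and CLDN1 was lower as well, at 77.8, 65.3 and 71.6 against 115, 96.6 and 97.1 CPM (-0.23 ± 0.08, adjusted p = 0.011). Neither overlapped between the groups. CLDN12 did not pass the test (0.14 ± 0.16, adjusted p = 0.47), at 9.89, 13.1 and 13.5 against 11.9, 12.9 and 15.9 CPM. By mean CPM, TJP1 was 1.47-fold and CLDN1 1.44-fold lower in enterocyte-like cells. Scaled by library totals, they stood at -0.57 and -0.53 (edgeR adjusted p = 4.0e-07 and 6.6e-08). In the main scaling the call on TJP1 was lost without control replicate 1 (edgeR adjusted p = 0.1). That on CLDN1 was lost without control replicate 2 (edgeR adjusted p = 0.059) and without the library block (edgeR adjusted p = 0.15), and DESeq2 called neither. With the cells clustered after log normalization, 66 cells were named stem- or TA-like, and of the 9 members that could be tested, CLDN2 not among them, CLDN15 alone was called.

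Of the junction list, 38 of 57 genes tested were higher in enterocyte-like cells (66.7%) and 8 lower (14.04%), beside 31.9% and 31.6% of all genes tested. Its median log2 fold change was 0.55, beside -0.01 over all genes. The list was not counted under scaling by library totals, which set the median gene at -0.31. All 5 other membrane proteins tested were higher, among them MARVELD3 (1.00 ± 0.08), LSR (0.82 ± 0.08) and ILDR1 (2.86 ± 0.53). Higher too were 9 of 17 scaffold and polarity genes, 5 of 6 partners and proteases, 6 of 10 actomyosin genes, 7 of 10 adherens junction genes, 4 of 6 transcription factors and 2 of 3 other claudins. CDH17 (1.66 ± 0.07), CDX2 (1.46 ± 0.07) and HNF4A (1.51 ± 0.07) rose, while PARD6A (-2.32 ± 0.41), YBX3 (-1.89 ± 0.09), CDH3 (-1.45 ± 0.15) and GRHL2 (-0.71 ± 0.21) fell.

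**Figure D2:**
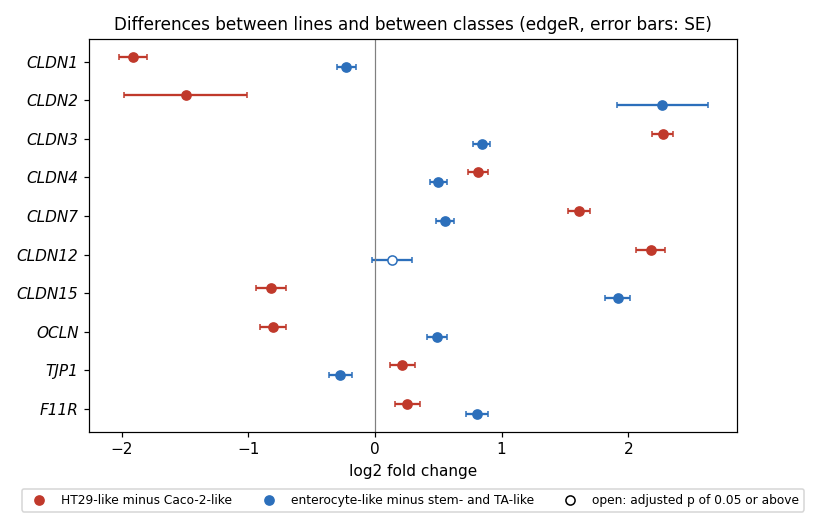
Log2 fold change with its SE (edgeR) of the 10 genes for HT29-like minus Caco-2-like cells (red) and enterocyte-like minus stem- and TA-like cells (blue), where an open point has an adjusted p of 0.05 or above. CLDN2, CLDN15 and OCLN lay below 0 for the lines and above 0 for the classes, TJP1 the other way round, and CLDN12 for the classes is the open point.

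**Figure D3:**
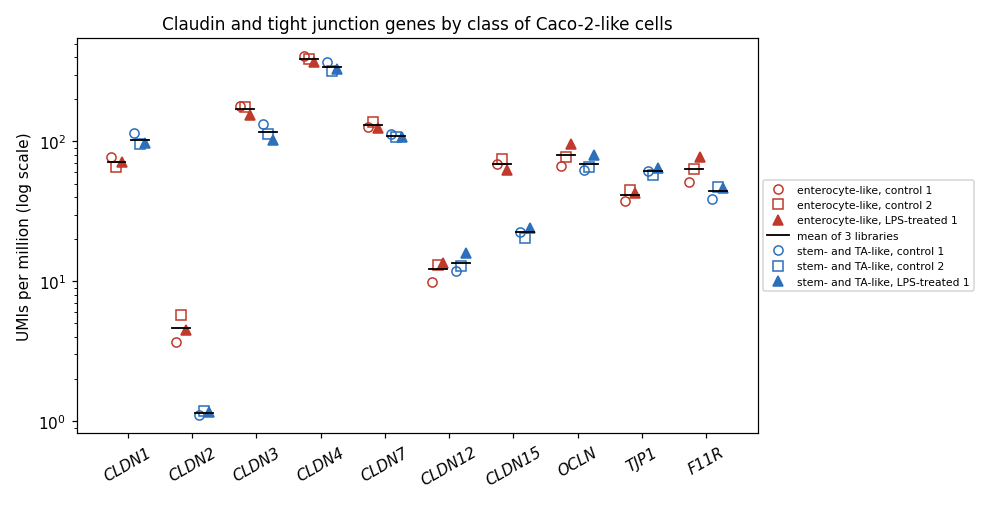
CPM (log axis) of the 10 genes in enterocyte-like (red) and stem- and TA-like (blue) cells, 1 point per library and a bar for the mean of 3 libraries. CLDN2 and CLDN15 lay well apart with enterocyte-like cells above, CLDN1 and TJP1 lay lower in enterocyte-like cells, and CLDN12 and OCLN overlapped.

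Levels over the 14 clusters are given as a description, without tests. CLDN3 was highest in cluster 2, the HT29-like cells (716 ± 73.0 CPM, SD, n = 3), and the goblet-like cluster 10 (668 ± 129), whose ranges overlapped. Cluster 10 held 221 cells, 52.5% of them with an HT29 score, and the hormone genes SST and GCG were among its leading genes beside MUC2. Cluster 9, unnamed Caco-2-like cells led by PAGE4, came next for CLDN3 (323 ± 10.3). The lowest mean was in cluster 4, led by RRM2 and SPC25 (97.0 ± 14.1), which overlapped with cluster 0. Cluster 9 had the highest median depth, 7038.5 UMIs per cell, with 0.329% of its cells at an HT29 score. The HT29 marker RARRES2 and the goblet marker FCGBP were among its leading genes. Whether it holds doublets of both lines was not tested. CLDN7 had the same first 3 clusters as CLDN3 (347 ± 31.4, 234 ± 26.7 and 177 ± 4.31 CPM), of which the first 2 were each apart from the next. CLDN12 was highest in clusters 2 (64.3 ± 13.99) and 10 (46.6 ± 10.1), and the other 12 clusters, from 24.8 ± 10.1 down to 11.4 ± 0.652 CPM, each overlapped with the next. CLDN15 was highest in the enterocyte-like cluster 3 (68.4 ± 6.10) and cluster 6 (57.9 ± 4.18), which overlapped. Its lowest mean was in the enteroendocrine-like cluster 11 (14.5 ± 3.15, 9 UMIs), which overlapped with cluster 10.

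CLDN1, OCLN and F11R were each highest in cluster 6, 546 unnamed Caco-2-like cells led by ITGA5 and TAS2R30. OCLN stood there at 161, 195 and 170.1 CPM, F11R at 131, 122 and 149 CPM and CLDN1 at 207, 198 and 212 CPM. OCLN and F11R lay apart there from the cluster next in order, which had 83.4 ± 10.7 CPM for OCLN and 87.4 ± 19.3 for F11R. For CLDN1 the next was cluster 12, with 80 cells and 162 ± 47.0 CPM. Its highest library, at 197.7 CPM, nearly reached the lowest of cluster 6, at 198.1 CPM. The median depth of cluster 6 was 3160.5 UMIs per cell, the lowest but for cluster 11 (2563), and its part in these levels was not tested. CLDN4 was highest in cluster 2 (680.0 ± 81.7) and in cluster 6 (650.1 ± 54.3), which overlapped. Its lowest mean was in the stem-like cluster 7 (287 ± 29.8), which overlapped with cluster 4. TJP1 was highest in cluster 13, 73 cells led by FABP7 and PTN (125 ± 19.8). Its lowest mean was in cluster 9 (29.7 ± 6.38), which overlapped with cluster 8. CLDN2 was highest by its mean in cluster 3 (4.64 ± 1.02, 47 UMIs), which overlapped with cluster 4 (3.05 ± 0.85, 17 UMIs). CLDN2 had no UMI in clusters 10, 11, 12 and 13, 0 of 562 cells. By the exact binomial interval used above, these clusters singly allow shares of up to 1.66%, 1.94%, 4.51% and 4.93% of cells. They were picked because they held no UMI, so no limit is given for them together.

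**Figure D4:**
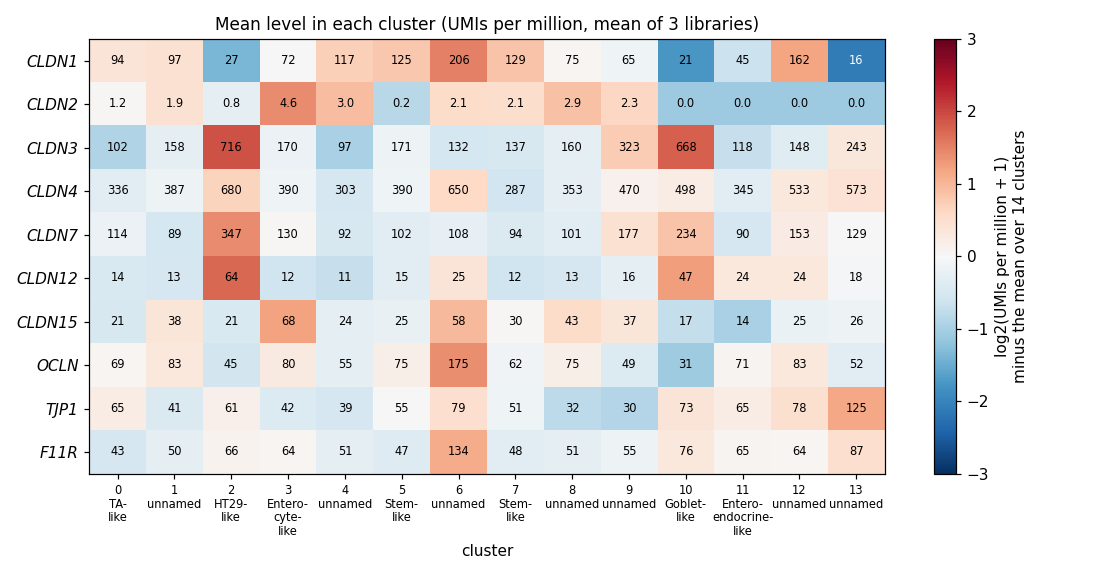
Mean CPM (3 libraries) of the 10 genes (vertical) in the 14 clusters (horizontal), printed in each square, with the colour giving log2(CPM + 1) minus its mean over the clusters. CLDN3, CLDN7 and CLDN12 were highest in clusters 2 and 10, CLDN2 and CLDN15 had their highest means in cluster 3, and CLDN1, OCLN and F11R in cluster 6.

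Likeness of pattern was described by Pearson's r of log2(CPM + 1) over 34 sums of a cluster in a library, which share libraries and differ in depth. Among the members CLDN3 and CLDN7 were most alike (0.92), followed by CLDN7 and CLDN12 (0.84), and CLDN1 and CLDN3 were most opposed (-0.69). CLDN3 and its neighbour CLDN4 had an r of 0.65. Among 8342 genes, those most like CLDN3 were TMED3 (0.95) and RABAC1 (0.94), and those most like CLDN7 were CIB1 (0.94) and SPINT2 (0.93). CLDN12 was most like PTK2 (0.94) and FAM91A1 (0.94), and CLDN4 most like CD2AP (0.90) and LAMP1 (0.88). CLDN1 was most like WWTR1 (0.93) and C2orf72 (0.93), and the pore claudins CLDN15 and CLDN2 were most like MS4A10 (0.94) and SLC26A3 (0.94) and LGALS3 (0.83) and CBR1 (0.80). MS4A10 and SLC26A3 are genes of the intestinal surface, SLC26A3 being a chloride exchanger. OCLN was most like APLP2 (0.91) and RAB11FIP1 (0.89), TJP1 most like PILRB (0.86) and TEAD1 (0.85) and F11R most like PIK3C2B (0.87) and ANO9 (0.87).

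The third comparison asks whether the levels differed after LPS. The paper detected no TLR4, which binds LPS, in the co-culture and proposes that microbial products are unlikely to act on it by that route. None of the 10 genes was called in either line by edgeR, in a fit of 4 groups over 6 sums that assumes the lone LPS-treated library to vary as the controls do. Within Caco-2-like cells 0% of 15077 genes were called (449 had an unadjusted p below 0.05, and DESeq2 called 0). Within HT29-like cells 0.0199% were called (510 had an unadjusted p below 0.05, and DESeq2 called 5), namely IFIT2, IFIT3 and PLA2G2A, named here after their values were seen.

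CLDN3 had the lowest unadjusted p of the members in both lines. In Caco-2-like cells it stood at 124 CPM in the LPS-treated library against 161 and 146 CPM in the controls (log2 fold change -0.40 ± 0.18, edgeR unadjusted p = 0.048, adjusted p = 0.99). In HT29-like cells it stood at 632 against 767 and 748 CPM (-0.32 ± 0.18, edgeR unadjusted p = 0.099, adjusted p = 1.00). The LPS-treated value was below both controls in both lines, and neither difference passed the test. CLDN7 had -0.17 ± 0.17 in Caco-2-like and -0.29 ± 0.17 in HT29-like cells, and CLDN4 -0.18 ± 0.19 and -0.29 ± 0.19. OCLN had 0.22 ± 0.19 and 0.32 ± 0.22, and CLDN12 0.24 ± 0.23 and 0.13 ± 0.23.

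CLDN1 had -0.10 ± 0.18 in Caco-2-like and 0.29 ± 0.23 in HT29-like cells, and F11R 0.24 ± 0.16 and -0.04 ± 0.19. TJP1 had 0.01 ± 0.16 and -0.09 ± 0.18, and CLDN15 -0.08 ± 0.16 and -0.06 ± 0.23. CLDN2, with 2 UMIs in the HT29-like cells of the LPS-treated library, had SEs of 0.44 and 1.22. The LPS effect was not called as different between the lines for any member (the lowest unadjusted p by edgeR was 0.16, for CLDN1). In data simulated for these comparisons, 2-fold changes were called for 55.8% of changed genes within Caco-2-like cells and 37.6% within HT29-like cells, so the absence of a call does not show that levels were equal. The changed genes were drawn from all genes past the filter, with the same mean in both lines, so these rates are not those of the members. The LPS-treated library was also the shallowest, and an effect of LPS cannot be told apart from one of the single library.

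**Figure D5:**
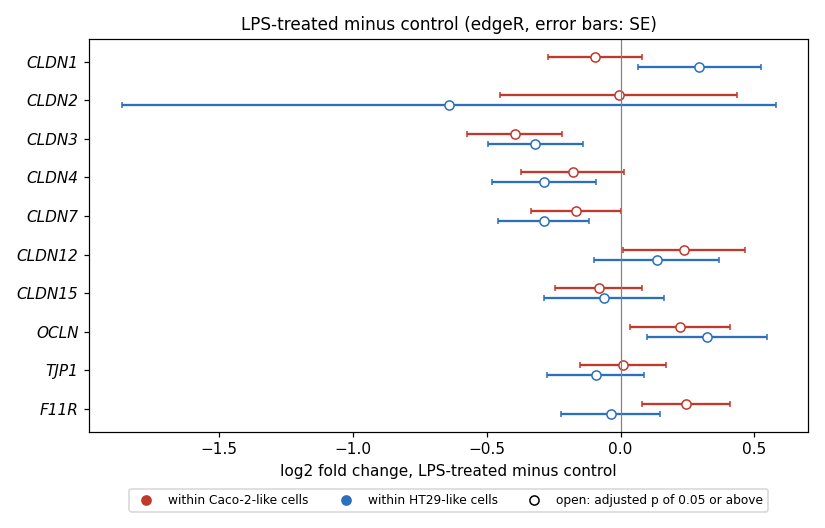
Log2 fold change with its SE (edgeR) of LPS-treated minus control for the 10 genes within Caco-2-like cells (red) and HT29-like cells (blue), from 1 LPS-treated and 2 control libraries. All points are open, since no adjusted p was below 0.05, and CLDN3, CLDN4 and CLDN7 lay below 0 in both lines.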

How the data were processed

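The libraries were 10x Genomics 3′ libraries. The authors aligned reads to GRCh38 and deposited UMI counts per gene and barcode, made with Cell Ranger 3.1.0 per the file headers. The paper names another version of Cell Ranger. The 3 deposited count matrices were analysed as whole-number counts, with no column of any other sample. Cells needed 2250 UMIs and 770 genes in control 1, 1500 UMIs and 700 genes in control 2 and, as no minimum was given for it, the same in the LPS-treated library, and at most 20% mitochondrial UMIs. Scrublet called 0, 0 and 1 doublets by its own threshold, which was taken as failed, and the 6% of cells with the highest scores were removed.

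Libraries were normalized with SCTransform, integrated by anchors (Seurat 5.3.0, 3000 features less the junction genes, 50 components) and clustered (15 neighbours, Leiden, resolution 0.5, scanpy 1.11.5). A cluster was given a line where at least 80% of its cells had that line's score, and a class by the markers it raised, a rule set after the clusters were seen. UMI counts were summed per group and library and tested with edgeR 4.0.16 (quasi-likelihood, TMM, filterByExpr, Benjamini-Hochberg over all genes tested), with the library as a block for lines and classes, since both groups of cells come from the same well. SE is the log2 fold change divided by the root of F. The tests were tried on simulated counts, with 194 changed genes tested for lines and 196 for classes. There 2.86% and 6.38% of calls were false. In the data 71.7% and 63.5% of genes were called, so the simulation cannot check the scaling of these comparisons. DESeq2 1.42.0, other scalings, filters, clusterings and left-out libraries were alternatives. Named genes of the junction list were those with the largest change between the lines, up to 3 a group and direction. Some genes that this rule names are not reported here. The members and lists were chosen with earlier results of these data known. Depth was 24185467 to 33893707 UMIs a library, and intervals cover counting error only. Nothing in the labels names separate cultures behind the control wells beyond their replicate numbers. For lines and classes, p-values therefore set the difference against its variation over these libraries. For LPS within a line they set it against the spread between the control libraries. The fit between the lines left 2 residual degrees of freedom, and edgeR draws the spread of each gene in part from all genes. A very small p-value thus does not come from the agreement of 3 libraries in that gene alone.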

Additional observations from a re-analysis of the deposited data

Results flagged for a closer look

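The difference between the LPS-treated library and the controls was called as unequal between the lines for PLA2G2A, a secreted phospholipase gene that is also among the stem-like markers and is not a junction gene. Its interaction log2 fold change was 2.03 ± 0.30 (edgeR adjusted p = 0.038, 1 residual degree of freedom), the only gene called of 15077, where 462 had an unadjusted p below 0.05 and DESeq2 called 0. With library totals no gene was called. It stood at 5.71, 6.17 and 29.6 CPM in HT29-like cells of control 1, control 2 and the LPS-treated library, from 23, 25 and 103 UMIs, and at 51.0, 63.8 and 71.0 CPM in Caco-2-like cells. The value rests on 1 treated library, so LPS and that library cannot be told apart, and the part of RNA from the other line in it was not tested.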

How the results depend on the processing

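Between the lines, CLDN1, CLDN3, CLDN4, CLDN7, CLDN12, CLDN15 and OCLN kept their direction and call under all 12 alternatives, while CLDN2, TJP1 and F11R lost their calls under 3, 6 and 5 of them. The library block rests on the shared well. Without the library block TJP1 (0.22) and F11R (0.26) between the lines and CLDN1 (-0.22) between the classes lost their calls, and no other member did. No paired analysis was possible for LPS because only 1 library was LPS-treated, and the labels do not pair it with a control.

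Between the classes, log normalization left 66 stem- or TA-like cells, 761 genes called and 1 member called, with CLDN3 at -0.36. Library totals turned CLDN12 to -0.16. At resolution 0.8 CLDN12 was called (0.40) and CLDN1 was not (-0.04).

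For LPS within Caco-2-like cells, 35 genes were called with no filter on low counts, 1 with doublets kept and 1 with the line set per cell. Within HT29-like cells the counts were 35, 0 and 5 in that order, 1 with library totals and 5 with DESeq2. For the interaction they were 16, 12 and 26, 3 with DESeq2 size factors, 0 with library totals, 0 with DESeq2 and 20 with stricter minimums. The causes were not tested. Uncalled members near 0 changed sign. Within Caco-2-like cells CLDN2 became 0.0024 (DESeq2 size factors), 0.080 (library totals), 0.0010 (DESeq2) and 0.024 (stricter minimums), CLDN15 0.0047 (library totals) and TJP1 -0.0027 (doublets kept). Within HT29-like cells CLDN1 became -0.020 (doublets kept) and F11R 0.020 (library totals). In the interaction CLDN15 became -0.0086 (library totals), -0.065 (doublets kept), -0.11 (stricter minimums) and -0.17 (line per cell), OCLN -0.094 (doublets kept) and -0.045 (line per cell), and CLDN3 -0.057 (line per cell).

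With either control left out, no residual degrees of freedom remained for LPS, so those are values without a test. Of these values, 4 within HT29-like cells and 0 within Caco-2-like cells moved by at least the SE of the main fit. Within HT29-like cells CLDN2 ranged from -1.44 to 1.15, CLDN12 from -0.12 to 0.45, OCLN from 0.10 to 0.59, CLDN4 from -0.41 to -0.14 and F11R from -0.12 to 0.05. Within Caco-2-like cells CLDN4 ranged from -0.30 to -0.05, CLDN1 from -0.24 to 0.06 and CLDN3 from -0.49 to -0.30. CLDN2, with 142 UMIs in all, is limited by depth throughout.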
